A study of Mus musculus with 24 samples.

Results

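The Kit+Sca1+ cells of a mouse acute myeloid leukaemia were compared with the unsorted leukaemia cells of the spleen. The comparison used 4 libraries of sorted MacLowKit+Sca1+ cells and 5 libraries of unsorted cells, 9 of the 24 RNA-seq libraries of the series, chosen by the sort label in the sample titles. All groups carry the NRASG12V/Mll-AF9 genotype, an activated NRAS together with the fusion of the histone methyltransferase MLL to AF9 in F1 hybrid mice (FVB/n X C57/BL/6J), and the cells were taken from leukaemic spleens. Age, treatment and the promoter behind each transgene are not given in the sources used here, and no label says that each library is another animal. The p-values therefore measure only the spread between these libraries, which may be technical. The unsorted group was not divided by any marker and can therefore also hold cells of every gate. The other 15 libraries, 5 each of MacHigh, MacLowKit-Sca1- and MacLowKit+Sca1- cells, entered the fit and serve here for side-by-side levels (MacLow is left out of the names below).

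Mac-1 is the integrin alpha M, encoded by Itgam, which mature myeloid cells carry. Kit is the receptor for stem cell factor, and Sca-1, encoded by Ly6a, is a surface antigen found on blood stem cells of the mouse that other haematopoietic cells and endothelium can also carry. In leukaemias with an MLL fusion, the cells able to restart the disease have been sought among cells with an immature surface, and the HOXA cluster and MEIS1 are well-known targets of the fusion. A spleen also holds resident cells that are no leukaemia cells by origin. Among them are erythroid precursors, the macrophages of the red pulp that take up old red cells, and the conventional dendritic cells, of which the type 1 subset takes up dead cells and presents their antigens to CD8 T cells.

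Genes of antigen presentation and genes of red cell formation moved in opposite directions between the groups, so the 250 bases before the RefSeq start (GRCm38.p6) of 3 genes of each kind are shown. In the first set, capitals mark the core of the X box and of the Y box (ATTGG), searched on both strands, the elements through which the RFX and NF-Y factors and the coactivator CIITA act on MHC class II genes. H2-Eb1 lies on the plus strand (chr17:34305617-34305866), as do H2-Oa (chr17:34092129-34092378) and H2-DMb1 (chr17:34152941-34153190).
H2-Eb1: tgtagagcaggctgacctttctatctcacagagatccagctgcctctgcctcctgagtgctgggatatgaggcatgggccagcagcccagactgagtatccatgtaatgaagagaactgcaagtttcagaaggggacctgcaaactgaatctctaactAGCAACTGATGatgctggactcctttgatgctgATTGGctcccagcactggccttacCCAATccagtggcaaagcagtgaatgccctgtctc
H2-Oa: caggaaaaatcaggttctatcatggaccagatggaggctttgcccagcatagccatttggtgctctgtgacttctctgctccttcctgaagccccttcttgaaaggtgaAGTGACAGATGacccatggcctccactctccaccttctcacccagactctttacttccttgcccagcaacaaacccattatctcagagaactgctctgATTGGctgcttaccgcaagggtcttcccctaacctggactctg
H2-DMb1: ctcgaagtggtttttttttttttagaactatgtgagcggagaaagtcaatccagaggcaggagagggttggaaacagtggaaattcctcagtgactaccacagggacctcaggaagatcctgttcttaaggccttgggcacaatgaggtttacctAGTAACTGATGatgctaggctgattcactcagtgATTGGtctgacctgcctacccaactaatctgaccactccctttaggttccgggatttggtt
Both cores stood in 4 of the 11 promoters of the MHC class II list that matched (of 16 genes), and in 0.292% of all 32851 promoters of this length; the X core alone was in 4 of the 11 and in 0.816% of all. In the second set, capitals mark AGATAA or TGATAA on either strand, the letters that GATA factors bind. Klf1 (chr8:84901732-84901981) and Alas2 (chrX:150547167-150547416) are on the plus strand and Epor (chr9:21963577-21963826) on the minus strand.
Klf1: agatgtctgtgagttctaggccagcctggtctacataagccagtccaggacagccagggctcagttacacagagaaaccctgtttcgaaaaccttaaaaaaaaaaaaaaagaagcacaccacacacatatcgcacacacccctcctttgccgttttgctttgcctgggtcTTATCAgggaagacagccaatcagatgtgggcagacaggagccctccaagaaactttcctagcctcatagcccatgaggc
Alas2: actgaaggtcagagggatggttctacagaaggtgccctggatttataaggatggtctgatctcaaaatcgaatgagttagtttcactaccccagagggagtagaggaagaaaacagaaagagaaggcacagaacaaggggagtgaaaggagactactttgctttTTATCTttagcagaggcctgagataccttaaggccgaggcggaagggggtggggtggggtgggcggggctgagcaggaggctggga
Epor: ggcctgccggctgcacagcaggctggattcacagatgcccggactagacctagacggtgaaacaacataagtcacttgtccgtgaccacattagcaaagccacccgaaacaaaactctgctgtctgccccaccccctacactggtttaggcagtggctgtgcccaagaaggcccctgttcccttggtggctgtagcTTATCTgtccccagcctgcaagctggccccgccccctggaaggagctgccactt
The GATA letters stood in 16 of the 30 erythroid promoters that matched (of 49 genes), in 3 of the 11 of the MHC class II list and in 16.6% of all promoters. They were also in 7 of 20 conventional dendritic cell promoters and in 9 of 30 of the neutrophil list. The Y core alone was common, in 8 of the 11 MHC class II promoters and in 33.8% of all promoters. For each list 11 searches were made, and the CACCC box (CCACACCC) was in 1 of the 30 erythroid promoters and in 3.2% of all. These matches describe letters only and show no binding.

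Values are FPKM, fragments normalised for gene length and for library size, and differences are of mean log2(FPKM + 1), Kit+Sca1+ minus unsorted, which understates the change of low genes. FPKM summed to between 469806 and 603735 in the Kit+Sca1+ libraries and between 498584 and 547253 in the unsorted ones. Read counts were not analysed here, so the depth is unknown, and steps between low values gave a depth of 0.868 to 1.29 and of 0.943 to 1.87 relative to unsorted replicate 1. Short RNA rows (microRNA and small nucleolar RNA) took 15.1% to 20.9% of the FPKM sum in Kit+Sca1+ libraries and 9.17% to 14% in unsorted ones. On the first principal component over all 24 libraries (36.6% of the variance) the groups overlapped, at -28.3 to -12.1 for Kit+Sca1+ and -16.4 to -6.44 for unsorted. On the next (16.6%) they did not, at 54.5 to 60.6 and -9.66 to -3.10.

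The RNA of the 3 sort markers followed the gate. Itgam was at 39.2, 52.6, 98 and 58.1 FPKM in Kit+Sca1+ replicates 1 to 4 and at 391.9, 373, 352, 298 and 338 FPKM in unsorted replicates 1 to 5. Every sorted library was below every unsorted one, a difference of -2.55. Kit was at 26.8, 32.0, 43.6 and 34.8 FPKM against 11.7, 10.9, 10.4, 7.98 and 12.6 FPKM, and Ly6a at 7.2, 9.75, 8.07 and 5.64 FPKM against 1.88, 2.86, 1.48, 2.74 and 1.59 FPKM. Neither gene overlapped between the groups, with differences of 1.58 for Kit and 1.48 for Ly6a (0.83 with a pseudocount of 5 FPKM). Each marker had an exact two-sided permutation p of 0.00794 over 126 splits, the smallest that 4 against 5 libraries allow, and the same value after adjustment over the 3 genes. The cells were sorted on these markers, so the p-values only check the sort and are no separate finding. Against the other gates, mean Kit in Kit+Sca1+ (34.3 FPKM) stood beside that in Kit+Sca1- (39.8 FPKM; limma difference -0.21, adjusted p = 0.24), whereas mean Ly6a (7.67 FPKM) exceeded the 2.35 FPKM of MacHigh, the group nearest to it (difference 1.38, adjusted p = 2.4e-05). By the correlation of log2(FPKM + 1) over the 24 libraries, the rows most like Ly6a were Sfi1 (Pearson r = 0.94), Igf1 (r = 0.93) and Slco2b1 (r = 0.92), a description in which groups and libraries are shared by all points.

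**Figure D1:**
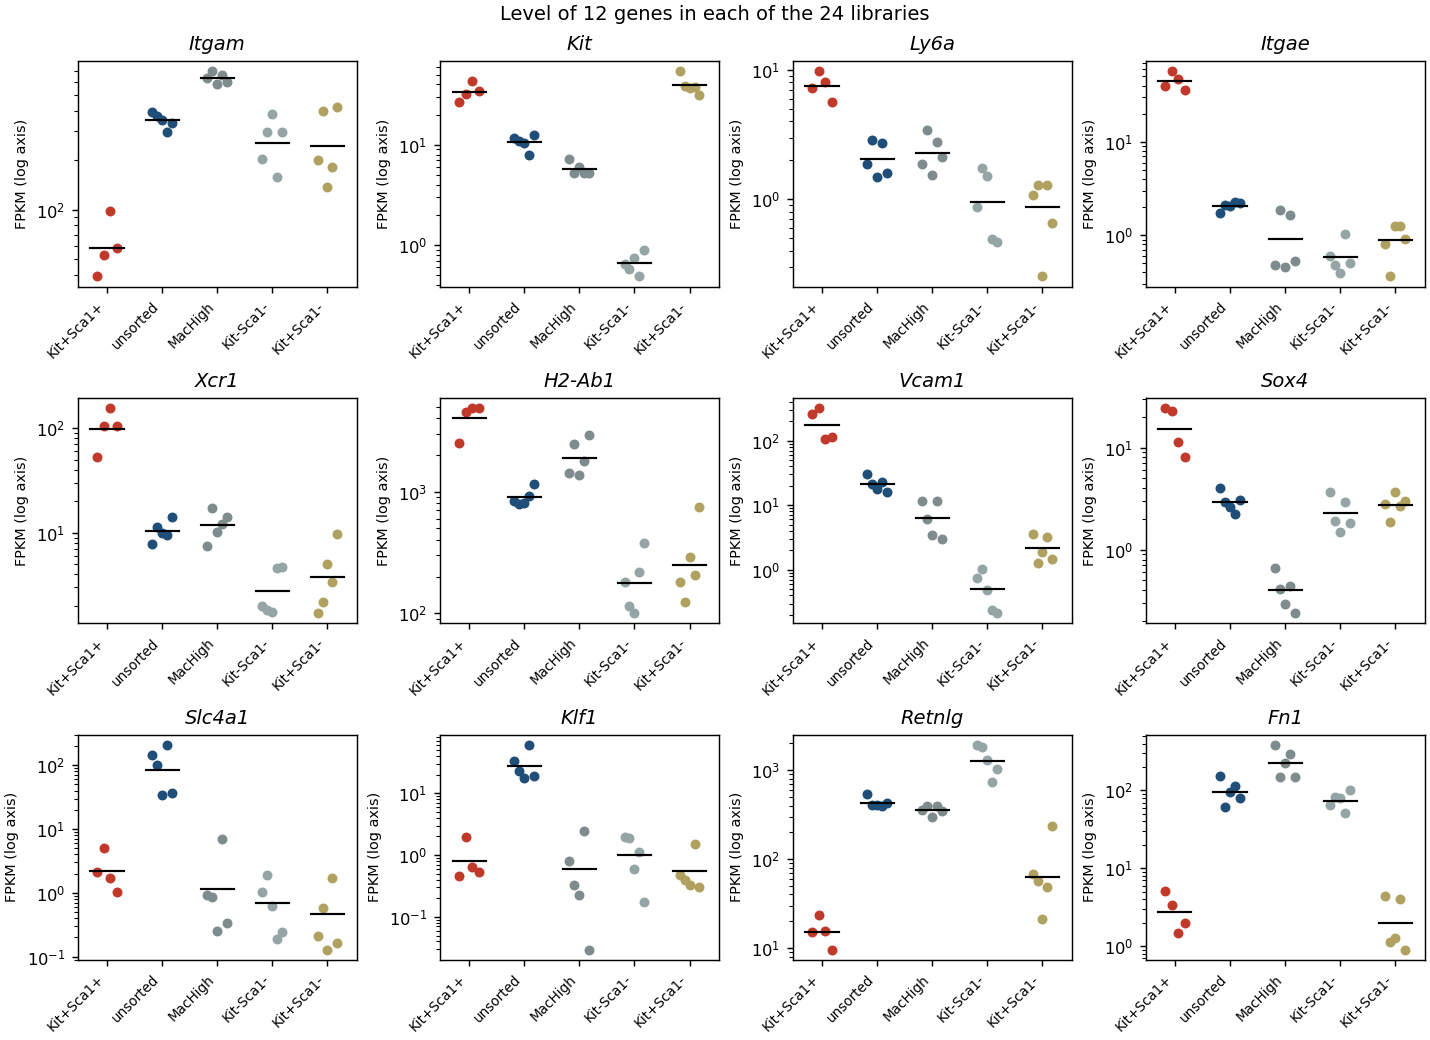
FPKM on a log axis of 12 genes in each of the 24 libraries, by group; points are libraries and bars the mean on the log2(FPKM + 1) scale. The Kit+Sca1+ libraries lie above all other libraries for Itgae, Xcr1, Vcam1 and Sox4, and the unsorted libraries alone are high for Slc4a1 and Klf1.

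Of 11598 rows with a value, 3818 (32.9%) differed between Kit+Sca1+ and unsorted cells at a Benjamini-Hochberg adjusted p under 0.05 with limma, 1997 (17.2%) higher and 1821 (15.7%) lower. A difference of 1 or more came with 545 higher rows (4.7%) and 532 lower rows (4.59%), and a pseudocount of 5 FPKM left 258 and 300. With every library rescaled to the same FPKM sum, 1351 rows were higher and 1950 lower, a split that moved back to 1977 and 1680 when the short RNA rows were left out of the sum. Some counts below are also given from a fit that limited Kit+Sca1+ and unsorted libraries to the 3 sample name prefixes that both groups hold. It kept all libraries of the other gates, had no term for the prefix and was added after seeing the data. Kit+Sca1+ had the highest mean of the 5 groups in 20.2% of the rows and unsorted in 3.7%. The median difference of all rows was -0.009. The shares of 17.2% higher and 15.7% lower rows are the background for each list count below.

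The 10 highest differences among genes that passed the test without overlap (15.5% of all rows were higher and 14.7% lower without overlap) belonged to Dnase1l3 (4.03), Itgae (3.88), Cxcl9 (3.55), Cd207 (3.51), Cadm1 (3.51), Gbp1 (3.29), Cd8a (3.19), Anpep (3.18), Tlr11 (3.13) and Xcr1 (3.12). Most of these names are known from type 1 conventional dendritic cells. Among the 10 lowest were Stfa3 (-4.76), Retnlg (-4.72), Slc4a1 (-4.71), Fn1 (-4.71), Car1 (-4.66), Mmp8 (-4.61), Aqp1 (-4.30), Cldn13 (-4.27) and Rhag (-4.24). Of these, Slc4a1, Car1, Aqp1, Cldn13 and Rhag are genes of erythroid cells, Stfa3, Retnlg and Mmp8 are expressed in neutrophils, and Fn1 encodes the matrix protein fibronectin.

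**Figure D2:**
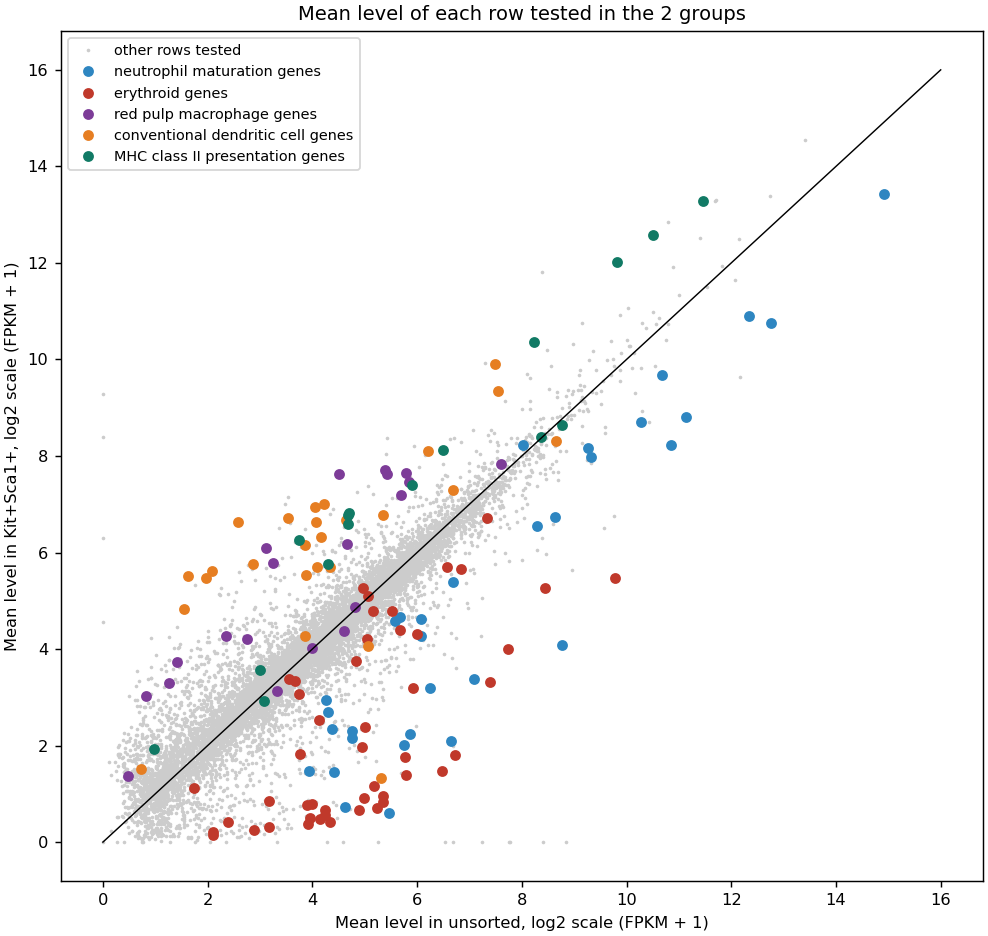
Mean level of each tested row in unsorted (x axis) and Kit+Sca1+ libraries (y axis), both on the log2 scale of FPKM + 1, with 5 gene lists coloured; the line marks equal means. Erythroid and neutrophil genes lie mostly below the line, and conventional dendritic cell, MHC class II and red pulp macrophage genes mostly above it.

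Of 26 conventional dendritic cell genes tested, 22 rose in Kit+Sca1+ cells and 2 fell, with a median difference of 2.09. Itgae, the integrin alpha E chain CD103, was at 39.5, 56.8, 47.2 and 36.1 FPKM in the sorted libraries and at 1.74, 2.10, 2.05, 2.25 and 2.24 FPKM in the unsorted ones. The lowest sorted library was thus far above the highest unsorted one (difference 3.88 ± 0.20 SE, adjusted p = 5.58e-12). Xcr1, the receptor for the chemokine XCL1, was at 53.6, 104, 156 and 104 FPKM against 7.83, 11.3, 10.1, 9.50 and 14.2 FPKM (difference 3.12 ± 0.35). Clec9a, a receptor for the actin of dead cells, was at 46.1, 122, 165 and 154 FPKM against 12.5, 12.8, 18.2, 11.8 and 22.4 FPKM (difference 2.78 ± 0.47). In both, replicate 1 was the lowest sorted library, yet it did not reach the unsorted range. Cd207 (langerin) had a mean of 43.6 FPKM against 2.90 FPKM, Cadm1, an adhesion molecule, 47.9 FPKM against 3.26 FPKM, and Dnase1l3, a secreted DNase, 97.7 FPKM against 4.99 FPKM. Cd8a, which this subset carries as a homodimer, was at 11.4, 30.6, 37.6 and 29.8 FPKM against 1.52 to 2.97 FPKM. Cd3e stayed under 1 FPKM in all 9 libraries, but of 16 T cell genes tested 8 rose, Thy1 and Cd4 among them, and 2 fell. Which cells carried the Cd8a RNA was not tested. The innate sensors moved with these: Tlr3 had a mean of 98.8 FPKM against 15.9 FPKM and Tlr11 90.0 FPKM against 9.35 FPKM, as did the peptidase Anpep (109 FPKM against 10.8 FPKM).

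Transcription factors of the lineage rose with them. Batf3, which type 1 dendritic cells need to form, was at 50.8, 84.7, 87.2 and 95.5 FPKM against 15.3, 12.7, 16.4, 18.3 and 21.9 FPKM (difference 2.15 ± 0.41). Irf8 had a mean of 648 ± 142 FPKM (SD, n = 4) against 185 ± 32.2 FPKM (n = 5), Zbtb46 45.1 FPKM against 13.7 FPKM, and Id2 560 FPKM against 204 FPKM. Flt3, the receptor for FLT3 ligand, which drives dendritic cell formation and is also carried by early progenitors, was at 131, 134, 128 and 113 FPKM against 20.0, 11.5, 15.7, 21.5 and 19.9 FPKM. The sorted libraries hardly differed among themselves in Flt3, and the difference was 2.80 ± 0.39 (adjusted p = 6.4e-06).

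The 2 members that fell mark other antigen-presenting cells. Cd209a, a lectin of monocyte-derived and type 2 dendritic cells, was at 0.554, 1.2, 3.25 and 0.989 FPKM against 35.2, 41.6, 46.8, 27.9 and 42.8 FPKM (difference -4.08 ± 0.46, adjusted p = 3.85e-07), and its mean was highest in MacHigh (140 FPKM). Clec10a fell by 1.08 and was also highest in MacHigh (98.1 FPKM). Irf4, a factor of type 2 dendritic cells in the list of lineage factors, was at 0.733 to 0.974 FPKM against 5.97 to 10.03 FPKM (difference -2.22 ± 0.21). Itgax, the CD11c chain shared by dendritic cells and many macrophages, rose by 1.34 against unsorted but gave no call against MacHigh (108 FPKM against 94.1 FPKM, adjusted p = 0.72). The members that did not pass were Cd24a (difference -0.33, adjusted p = 0.103), which passed with -0.41 at equal FPKM sums, and Ly75 (0.39, adjusted p = 0.408). Itgae and Xcr1 were also far below their Kit+Sca1+ levels in the other gates. Mean Itgae was 1.00 FPKM in MacHigh, 0.601 FPKM in Kit-Sca1- and 0.921 FPKM in Kit+Sca1-, and mean Xcr1 12.2, 2.99 and 4.41 FPKM. For Xcr1 the MacHigh mean lay within the unsorted range.

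In bulk RNA, fewer cells of a type and less RNA per cell (or more of either) cannot be told apart, here and for each list that follows. The summed FPKM of the conventional dendritic cell list was 2419, 3906, 4350 and 3984 in Kit+Sca1+ replicates 1 to 4 and 1121 to 1416 in the unsorted libraries. In MacHigh the list summed to 1228 to 1998 FPKM, reaching above the unsorted libraries but below every Kit+Sca1+ one. It summed to 678 to 985 FPKM in Kit-Sca1- and to 651 to 1386 FPKM in Kit+Sca1-. How much of any difference comes from resident cells inside the gate was not tested.

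Genes of MHC class II presentation, the pathway that loads peptides of engulfed proteins, rose in 13 of 16 tested members and fell in none (median 1.71), with 12 to 13 higher and 0 lower under each alternative tried. Cd74, the invariant chain, was at 6288, 10352, 11452 and 11963 FPKM against 2677, 2328, 2580, 2886 and 3561 FPKM. H2-Ab1 was at 2487, 4474, 4857 and 4846 FPKM against 842, 788, 806, 927 and 1156 FPKM, so that replicate 1 again was the lowest sorted library without reaching the unsorted values (difference 2.17 ± 0.40, adjusted p = 0.00021). H2-Aa and H2-Eb1, whose promoter is shown above, differed by 2.06 and 2.10. Ciita, the coactivator of these genes, was at 66.1, 111, 165 and 108 FPKM against 23.4, 25.4, 24.4, 19.6 and 31.5 FPKM (difference 2.08 ± 0.34). H2-Oa and H2-DMb1, whose promoters are also shown above, differed by 2.01 and 1.48. The costimulatory ligand Cd86 rose by 2.49, whereas Cd80 (-0.17, adjusted p = 0.444) and the thiol reductase Ifi30 (-0.14, adjusted p = 0.67) did not pass. Class II genes were also high in MacHigh: mean Cd74 was 10014 FPKM in Kit+Sca1+ and 6833 FPKM in MacHigh (difference 0.57, adjusted p = 0.27), but 646 FPKM in Kit-Sca1- and 857 FPKM in Kit+Sca1-.

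Genes of MHC class I and antigen processing rose in 16 of 23 tested members and fell in none, by less (median 0.70). Psmb9, a subunit of the immunoproteasome, was at 203, 362, 380 and 385 FPKM against 103, 104, 95, 86.6 and 128 FPKM (difference 1.64), and Tap1, a chain of the peptide transporter, differed by 1.57 ± 0.14. The heavy chain H2-K1 had a mean of 503 ± 51.1 FPKM against 285 ± 15.9 FPKM; reads of its near-identical relatives could be split differently by the authors' counting. B2m, the shared light chain, rose by 0.48 (adjusted p = 0.00598), a call lost with quantile normalization (0.34).

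Red pulp macrophage genes rose in 15 of 20 tested members and fell in none (median 1.68). Vcam1, an adhesion molecule of these cells, was at 255, 319, 104 and 115 FPKM against 30.8, 21.6, 17.9, 22.7 and 16.3 FPKM (difference 2.99 ± 0.36, adjusted p = 7.79e-07). Here replicates 1 and 2 were the highest sorted libraries, unlike for the dendritic cell genes. Cd5l, a secreted scavenger protein, was at 97.5, 89.4, 29.7 and 52.6 FPKM against 6.30 to 11.1 FPKM, and Spic, the transcription factor these macrophages need, at 67.6, 67.5, 37.9 and 41.6 FPKM against 7.49 to 10.4 FPKM. C1qa, a chain of complement C1q, differed by 2.23, the iron exporter Slc40a1 (ferroportin) by 1.46 and Timd4, a receptor for dying cells, by 2.09. Hmox1, heme oxygenase, did not pass (226 FPKM against 193 FPKM, adjusted p = 0.565). Spic had a mean of 53.7 FPKM in Kit+Sca1+, 9.22 FPKM in MacHigh and 0.246 and 0.317 FPKM in Kit-Sca1- and Kit+Sca1-. The list summed to 1728, 2460, 1040 and 1473 FPKM in the Kit+Sca1+ libraries and to 536 to 659 FPKM in the unsorted ones. In MacHigh it summed to 715 to 1313 FPKM, above the unsorted libraries and overlapping the Kit+Sca1+ ones. Igf1 and Slco2b1, which followed Ly6a over all libraries, had their highest Kit+Sca1+ value in replicate 2, as C1qa did.

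**Figure D3:**
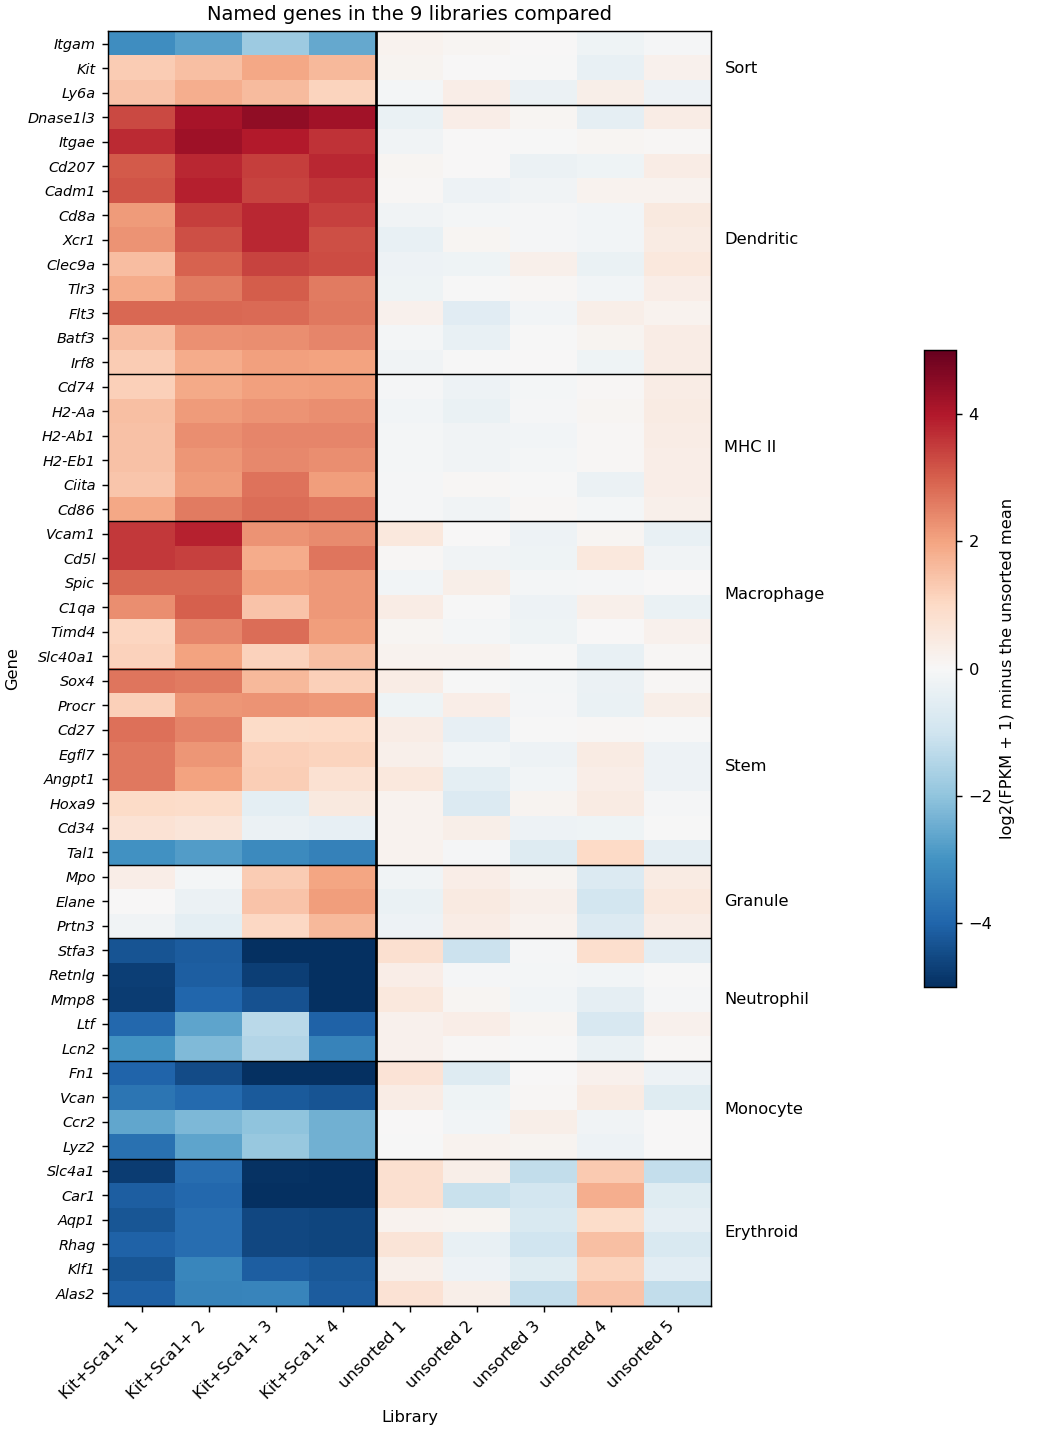
Level of named genes in the 9 libraries as log2(FPKM + 1) minus the mean of the 5 unsorted libraries; rows are genes in groups, columns libraries, and the colour scale is capped at 5 on either side. Kit+Sca1+ replicate 1 is palest for Xcr1, Clec9a, Cd8a, Cd74 and H2-Ab1, replicates 1 and 2 are darkest for Vcam1, Cd5l, Sox4, Cd27 and Angpt1, and replicates 3 and 4 are darkest for Mpo and Elane.

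Of 32 stem and progenitor cell genes, 12 stayed under 1 FPKM in all 9 libraries and 17 were tested: 8 rose, 4 fell, and the median was 0.32. Beside the sort markers Kit and Ly6a, by which the cells were gated, the higher members were Sox4, Procr, Cd27, Egfl7, Angpt1 and Etv6. Sox4, a transcription factor of immature cells, was at 24.4, 23.1, 11.3 and 8.10 FPKM against 4.05, 2.91, 2.64, 2.26 and 3.07 FPKM (difference 2.04 ± 0.24, adjusted p = 7.55e-07). Procr, the protein C receptor EPCR carried by blood stem cells, was at 7.13, 15.6, 16.2 and 15.4 FPKM against 1.88 to 3.5 FPKM. Cd27, a receptor of the TNF family, was at 23, 18.7, 5.94 and 5.99 FPKM against 1.66 to 3.56 FPKM, and Angpt1, the ligand of the receptor TIE2, at 29.4, 18.6, 10.6 and 7.27 FPKM against 2.51 to 6.15 FPKM. Egfl7, a secreted factor, ran in the same order over the sorted libraries (74.9, 55.3, 27.4 and 25.8 FPKM). The levels of Sox4, Cd27, Egfl7 and Angpt1 in replicates 3 and 4 were thus less than those in replicates 1 and 2, and all stayed above the unsorted range. Etv6 rose by 0.56 ± 0.08. Sox4 was lower in each other gate, at a mean of 0.407 FPKM in MacHigh, 2.35 FPKM in Kit-Sca1- and 2.79 FPKM in Kit+Sca1-, against 16.7 FPKM.

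The members that fell were Tal1, Gata2, Eng and Lyl1. Tal1, a factor of stem cells and of the erythroid line, was at 0.785, 1.13, 0.615 and 0.424 FPKM against 15.5, 13, 8.39, 28 and 9.83 FPKM, and its mean was under 1 FPKM in all 4 sorted groups. Eng (-0.57) and Lyl1 (-0.32) fell less. Gata2 fell by 1.01 (adjusted p = 0.0122), a call lost without Kit+Sca1+ replicate 3 (-0.85) or 4 (-0.77). Cd34 was at 43.3, 39.9, 21.2 and 19.6 FPKM against 21.4 to 32.2 FPKM and did not pass (0.16, adjusted p = 0.715); without Kit+Sca1+ replicate 1 the value was -0.028. Erg did not pass either (0.08, adjusted p = 0.838), and its sign turned without replicate 1 (-0.069) and with the name prefix as a block (-0.046).

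Of 22 tested regulators of MLL-fusion leukaemia, Flt3, Sox4 and Bmi1 rose and Pbx3 fell (median 0.25), and without Kit+Sca1+ replicate 1 only 2 rose and 0 fell. Bmi1, a Polycomb subunit linked to self-renewal, differed by 0.35 (adjusted p = 0.0197), a call lost at equal FPKM sums and without Kit+Sca1+ replicate 1, and Pbx3, a partner of HOX proteins, by -0.30 (adjusted p = 0.0436), a call lost when any of 7 of the 9 libraries was left out. Hoxa9 was at 8.94, 8.69, 2.65 and 6.21 FPKM against 4.83, 2.21, 4.59, 5.90 and 3.93 FPKM, overlapping groups with a difference of 0.47 (adjusted p = 0.248). Hoxa5 (0.52, adjusted p = 0.0986), Hoxa7 (0.56, adjusted p = 0.121) and Hoxa10 (0.39, adjusted p = 0.247) did not pass either. Without Kit+Sca1+ replicate 3, the lowest sorted library for Hoxa9, 3 of these 4 were called: Hoxa9 at 0.79 (adjusted p = 0.0372), Hoxa5 at 0.74 (adjusted p = 0.0204) and Hoxa7 at 0.76 (adjusted p = 0.0479). With the name prefix as a block, 6 members rose and 1 fell, Hoxa5, Hoxa7 and Hoxa9 among the higher ones (adjusted p = 0.00567, 0.00739 and 0.00688). Within the 3 prefixes that both groups hold, Hoxa9 differed by 0.73, 0.18 and 0.55. Meis1 (6.35 FPKM against 5.29 FPKM, adjusted p = 0.323), Myb (93.4 FPKM against 69.7 FPKM, adjusted p = 0.126) and Myc (88.5 FPKM against 59.2 FPKM, adjusted p = 0.0858) did not pass; Myc passed with the prefix block (0.45) and Myb without Kit+Sca1+ replicate 2 (0.55). Meis1 was at 1.88 FPKM in Kit+Sca1-, below Kit+Sca1+ by 1.33 (adjusted p = 6.8e-08), and Myb, at 187 FPKM there, was above it by 1.00.

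Primary granule genes encode the first granule proteins that developing neutrophils make. Of 14 tested, Prss57 (0.90) and Srgn (0.60) rose, Ctsc, the protease that activates the granule enzymes, fell (-1.75), and the median was 0.34. The higher count depended on single libraries: it was 4 without Kit+Sca1+ replicate 1, 5 without replicate 2, and 0 without Kit+Sca1+ replicate 3 or 4 or unsorted replicate 1 or 4. Srgn, the granule proteoglycan, was not called when any of 7 of the 9 libraries was left out, and Prss57 was not called without Kit+Sca1+ replicate 3 or 4 or unsorted replicate 1 or 4. Mpo, the myeloperoxidase, was at 1255, 943, 2462 and 3927 FPKM against 904, 1260, 1105, 630 and 1326 FPKM, so that replicates 3 and 4 lay above the unsorted range and replicates 1 and 2 inside it (difference 0.86, adjusted p = 0.0645). It was called without Kit+Sca1+ replicate 1 (1.05) or 2 (1.19). Mpo was also called (adjusted p = 0.0368) when rows at 0.001 throughout a group, as Mpo is in Kit+Sca1-, were kept as 0. Equal FPKM sums without short RNA rows gave a call too (adjusted p = 0.0466). Elane, neutrophil elastase, and Prtn3, proteinase 3, split in the same way, at 897, 716, 2356 and 3769 FPKM and at 536, 430, 1230 and 1860 FPKM; Elane was called without replicate 2 (1.18). Ctsg did not pass (0.28, adjusted p = 0.487), and its value was -0.015 without Kit+Sca1+ replicate 4.

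Genes of neutrophil maturation fell in 30 of 32 tested members and rose in none (median -1.98). Retnlg, a resistin-like protein of neutrophils, was at 15.3, 23.8, 15.4 and 9.55 FPKM against 536, 407, 406, 391 and 422 FPKM (difference -4.72 ± 0.42, adjusted p = 1.12e-08), and was higher still in Kit-Sca1- (mean 1360 FPKM). Mmp8, the neutrophil collagenase, was at 1.37 to 5.30 FPKM against 70.8 to 139 FPKM, and Stfa3, a stefin with near-identical copies that share reads, was at 0.942 and 1.17 FPKM in Kit+Sca1+ replicates 1 and 2 and listed at 0.001, which stands for 0, in replicates 3 and 4. The proteins of secondary granules fell less evenly. Ltf, lactoferrin, was at 115, 282, 690 and 107 FPKM against 1006 to 2206 FPKM, and Lcn2, lipocalin 2, at 281, 480, 804 and 219 FPKM against 1770 to 2579 FPKM. Replicate 3 was the highest sorted library in both, as in S100a8 (6286, 7786, 19400 and 10739 FPKM against 16781 to 39685 FPKM), where it overlapped the unsorted range. S100a8 differed by -1.57 (adjusted p = 0.0116), a call lost with no filter on low values (adjusted p = 0.63) and in the fit of only the shared prefixes (adjusted p = 0.062). Its partner S100a9 is listed at 0.001 in all unsorted libraries and has no value in this comparison. Without S100a9, which was left out of both groups, the list summed to 10620, 13805, 31338 and 15905 FPKM in the sorted libraries and to 32878 to 62837 FPKM in the unsorted ones, where replicate 4 was lowest and lay close to the highest sorted library.

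Monocyte and macrophage genes fell in 26 of 39 tested members and rose in 4 (median -1.45). Fn1 was at 5.08, 3.36, 1.49 and 1.98 FPKM against 155, 61.9, 96.9, 113 and 80.3 FPKM (difference -4.71 ± 0.35), and Vcan, the proteoglycan versican, at 0.284 to 1.04 FPKM against 15.9 to 32.6 FPKM. Ccr2, the chemokine receptor of inflammatory monocytes, was at 15.4 to 23.5 FPKM against 88.3 to 122 FPKM, and Lyz2, lysozyme, at 338, 734, 1224 and 862 FPKM against 3783 to 5088 FPKM. Mean Fn1 and Vcan were low in Kit+Sca1- too (2.33 and 0.617 FPKM) and high in MacHigh (241 and 49.6 FPKM). The 4 higher members were Mpeg1, the pore-forming perforin-2 (1.29), the haemoglobin scavenger receptor Cd163 (1.34), the lysosomal protein Psap (1.00) and the protease Ctsb (0.53). The call of Ctsb was lost at equal FPKM sums (0.45, adjusted p = 0.0691), without Kit+Sca1+ replicate 2 (0.41, adjusted p = 0.0632) and in the fit of only the shared prefixes (0.50, adjusted p = 0.0751). Psap is listed at 0.001 in all MacHigh libraries, and its call was lost with quantile normalization (0.44).

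Erythroid genes fell in 41 of 48 tested members and rose in none (median -2.76), and 43 of the 48 had the highest mean of the 5 groups in unsorted cells, against 3.7% of all rows. Slc4a1, the anion exchanger band 3 of the red cell membrane, was at 2.13, 5.00, 1.73 and 1.05 FPKM against 144, 102, 34.6, 210 and 36.2 FPKM (difference -4.71 ± 0.53, adjusted p = 3.43e-07). Klf1, the erythroid transcription factor whose promoter is shown above, was at 0.462, 1.95, 0.634 and 0.529 FPKM against 33.6, 23.3, 17.8, 60.8 and 18.7 FPKM. Alas2, the first enzyme of erythroid heme synthesis, was at 1.40 to 3.36 FPKM against 17.1 to 113 FPKM, Gata1 at 0.207 to 0.969 FPKM against 9.90 to 39.5 FPKM, and Epor, the erythropoietin receptor, at 1.77 to 4.05 FPKM against 6.01 to 26.7 FPKM. The unsorted libraries kept 1 order in these genes, with replicate 4 highest and replicates 3 and 5 low. Rhag (-4.24), Aqp1 (-4.30), Car1 (-4.66) and Cldn13 (-4.27) fell too. The globins fell as well, Hba-a1 (-3.66) and the beta chains Beta-s (-4.1) and Hbb-b1 (-2.93), though reads of the near-identical globin copies may be split between rows. The other 3 gates were low as well: mean Slc4a1 was 1.87 FPKM in MacHigh, 0.795 FPKM in Kit-Sca1- and 0.561 FPKM in Kit+Sca1-. The list summed to 593, 603, 582 and 503 FPKM in the sorted libraries and to 3679, 2681, 1455, 6367 and 1592 FPKM in the unsorted ones.

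Of 28 tested genes of iron and heme handling, 16 fell and 3 rose (median -0.45). The heme enzyme Cpox fell (-1.79), as did the ferrireductase Steap3 (-1.89), both highest in unsorted replicate 4. Trf, the iron carrier transferrin, was at 159, 247, 133 and 163 FPKM against 49.4 to 60.9 FPKM and rose by 1.59, as did the ferroportin gene named above.

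**Figure D4:**
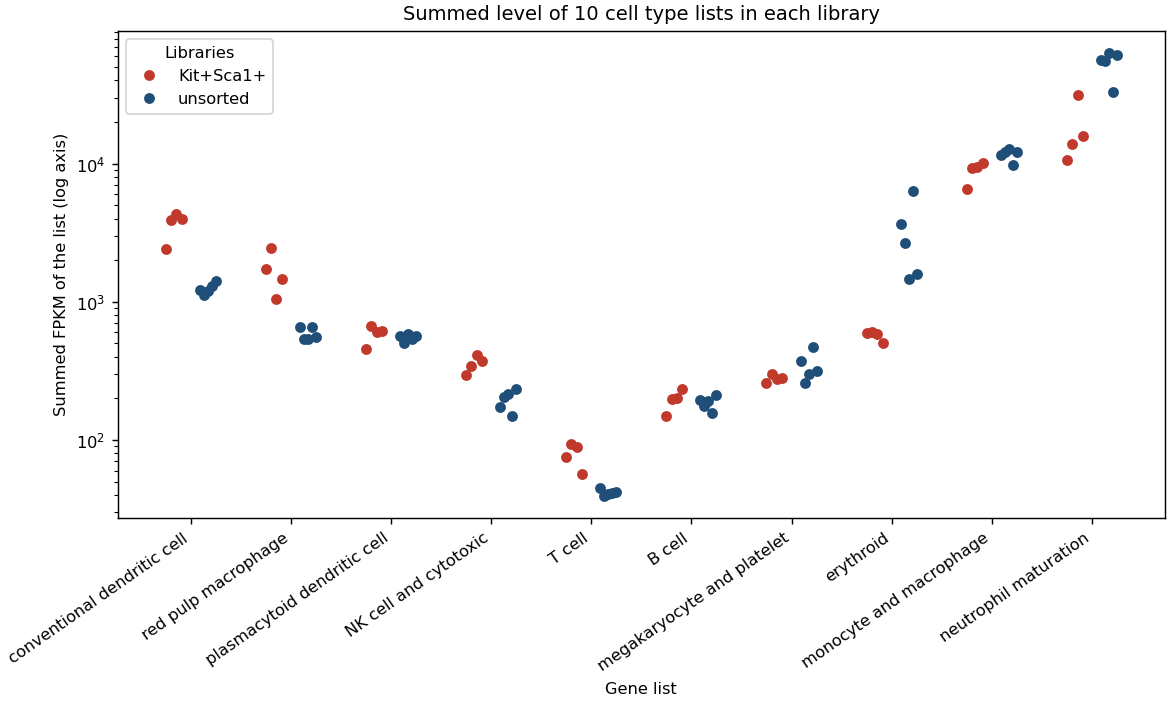
Summed FPKM of 10 cell type lists in each library (log axis); points are libraries, Kit+Sca1+ and unsorted side by side. S100a9 is left out. Cd8a, the T cell gene with the highest mean level, is also in the dendritic cell list. Without it the T cell sums of the groups would overlap. The groups do not overlap for conventional dendritic cell (2419 to 4350 against 1121 to 1416), red pulp macrophage, NK cell, T cell, erythroid and neutrophil genes, and they overlap for monocyte, platelet, B cell and plasmacytoid dendritic cell genes.

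Lists of other cells that a spleen gate could hold gave smaller or mixed counts. NK cell and cytotoxic genes rose in 10 of 23 tested members and fell in none (median 0.38), but only 5 or 6 were called without Kit+Sca1+ replicate 1 or 2 or unsorted replicate 3, 6 at equal FPKM sums and 5 with a pseudocount of 0.1 FPKM. In the fit of only the shared prefixes, 4 NK cell genes were higher, 4 T cell genes higher and 2 lower, 5 plasmacytoid dendritic cell genes higher and 2 lower, and 2 B cell genes higher and 1 lower. Gzmc, a granzyme, was at 11.4, 22.2, 24.5 and 2.62 FPKM against 1.00 to 2.18 FPKM, Xcl1 at 15.2 to 21.4 FPKM against 4.15 to 5.36 FPKM, and Klrk1, the receptor NKG2D, at 11.7 to 15.9 FPKM against 3.09 to 4.86 FPKM. Ncr1, a defining NK receptor, did not pass (5.87 FPKM against 4.75 FPKM, adjusted p = 0.718), and was -0.13 without replicate 3. The NK cell list summed to 297 to 414 FPKM in Kit+Sca1+, 318 to 556 FPKM in Kit+Sca1- and 180 to 482 FPKM in Kit-Sca1-. In MacHigh it summed to 93.8 to 133 FPKM. High NK cell sums were thus not confined to Kit+Sca1+, where 7 of the 23 tested members had their highest mean. Of 16 T cell genes 8 rose and 2 fell, with Cd8a, which is also in the dendritic cell list, among the higher ones. Thy1 was higher by 1.26, Cd4 by 1.04 and Tcf7, a factor of T and progenitor cells, by 1.23 (a call lost in that fit, 0.98). Cd3d fell by 1.98, and 11 of the 30 listed genes were under 1 FPKM in all 9 libraries. Of 26 B cell genes, 16 were under 1 FPKM in all 9 libraries, Cd79a and Pax5 among them, and of the 9 tested 3 rose and 3 fell. Of 20 plasmacytoid dendritic cell genes 7 rose and 4 fell; Siglech, their defining lectin, was at a mean of 0.652 FPKM against 0.677 FPKM.

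Megakaryocyte and platelet genes fell in 9 of 18 and rose in 2: the platelet chemokines Ppbp (-3.21) and Pf4 (-2.58) fell, as did Itga2b, the integrin chain CD41 (-1.85). Mast cell and basophil genes fell in 8 of 12 and rose in 2, the sort marker Kit and the transporter Slc45a3 (2.14). The basophil protease Prss34 fell by 2.31. Eosinophil genes fell in 4 of 11 and rose in 1, Ccr3, the eotaxin receptor, at 10.1, 32.8, 14.2 and 10.3 FPKM against 1.88 to 3.21 FPKM; with the prefix block or library weights 7 fell. Endothelial and stromal genes fell in 6 of 11 and rose in 3, with 16 of 31 under 1 FPKM in all 9 libraries. Plasma cell genes fell in 3 of 9.

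**Figure D5:**
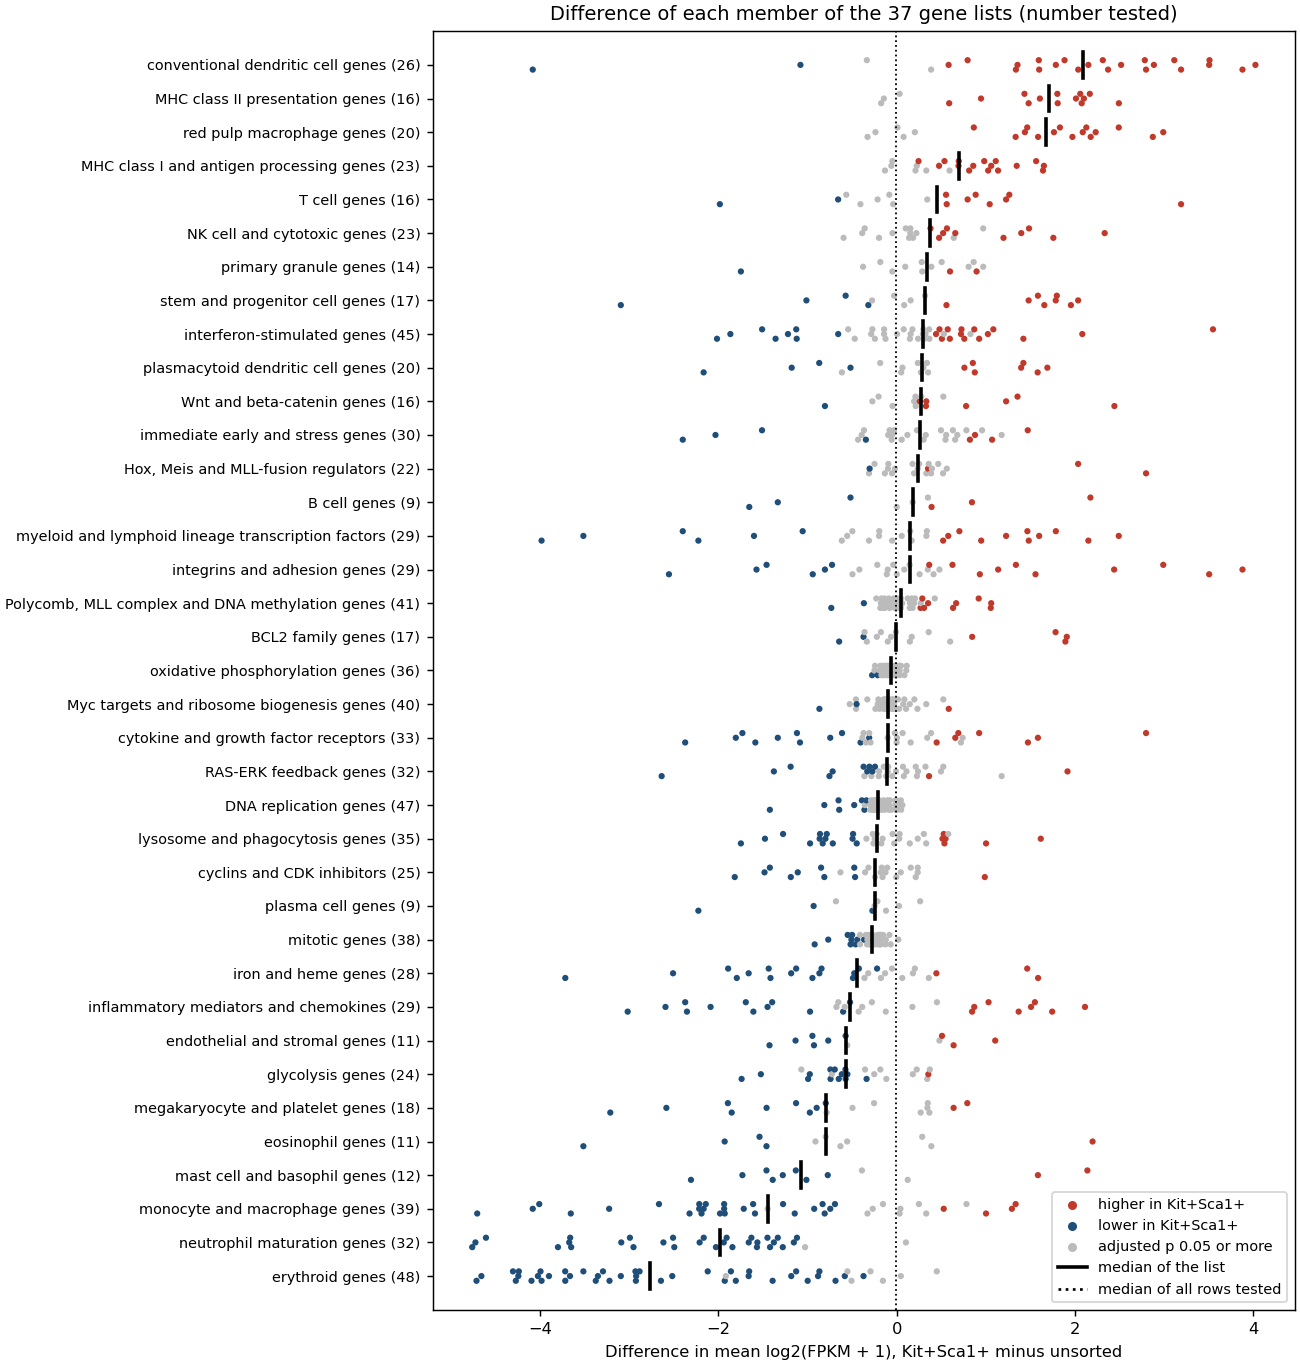
Difference in mean log2(FPKM + 1), Kit+Sca1+ minus unsorted, of every tested member of the 37 gene lists; each point is a gene, coloured by its call, thick marks are list medians and the dotted line is the median of all rows tested. Medians run from -2.76 (erythroid) to 2.09 (conventional dendritic cell), and the lists of oxidative phosphorylation and Myc targets lie close to the dotted line.

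Lineage transcription factors rose in 11 of 29 and fell in 6. Klf4, a factor of monocytes, was at 3.40 to 7.42 FPKM against 28.1 to 35.3 FPKM (-2.40 ± 0.22). Among cytokine and growth factor receptors 7 of 33 rose and 11 fell, where 17.2% of all rows were higher and 15.7% lower. The higher ones held the sort marker Kit, Flt3 and Ifngr1, the interferon gamma receptor chain (0.93 ± 0.15). Il17ra was at 31.3 to 32.1 FPKM against 85.4 to 109 FPKM and Cx3cr1, the fractalkine receptor of monocytes, at 2.60 to 10.9 FPKM against 32.3 to 39.1 FPKM.

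Inflammatory mediators and chemokines fell in 12 of 29 and rose in 8. Ccl2, which attracts CCR2-bearing monocytes, was at 3.40, 2.56, 1.29 and 8.13 FPKM against 29.6, 31.0, 36.6, 53.2 and 23.3 FPKM, and Ccl9 fell by 2.59. Cxcl9, which attracts CXCR3-bearing T cells and is induced by interferon gamma, was at 29.5, 50.8, 37.2 and 38.7 FPKM against 2.68, 1.74, 2.46, 2.42 and 2.59 FPKM (3.55 ± 0.22, adjusted p = 7.98e-11). Cxcl16 rose by 2.11 and Il18 by 1.75. Of 45 interferon-stimulated genes 15 rose and 8 fell, so the list did not move one way: the GTPases Gbp1 and Gbp2 and the factor Irf7 rose by 3.29, 2.08 and 1.42, while the antiviral genes Ifitm3 (-2.02) and Rsad2 (-1.87) fell. The Gbp1 row matches RefSeq by an older symbol, and reads of related Gbp genes may be shared.

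Of 47 DNA replication genes 8 fell (median -0.21) and of 38 mitotic genes 9 fell (median -0.28), none of either rising, where 15.7% of all rows were lower. Cyclins and CDK inhibitors fell in 9 of 25 and rose in 1, and 5 of the 9 fell by 1 or more. The first 2 counts were 21 each when only the 9 libraries were fitted and 17 and 21 with library weights, and the mitotic count was 15 with the prefix block. Mki67, a protein of cycling cells, was at 95.9, 75.7, 89.4 and 85.6 FPKM against 162, 157, 144, 142 and 135 FPKM (-0.77 ± 0.16), and Rrm2, a subunit of ribonucleotide reductase, at 78.2 to 96.3 FPKM against 129 to 155 FPKM. Ccne1, cyclin E1, was at 11.2 to 13.1 FPKM against 29.8 to 50.9 FPKM, E2f2 at 9.95 to 15.4 FPKM against 38.2 to 53.3 FPKM, and Ccnd3, cyclin D3, fell by 1.19. Ccna2 fell by 0.52, and the CDK inhibitor Cdkn1a (p21) was at 24.9 to 34.2 FPKM against 67.4 to 102 FPKM, lowest of all gates in Kit+Sca1- (13.2 FPKM).

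Of 40 Myc targets and ribosome biogenesis genes 1 rose and 2 fell, and of 36 oxidative phosphorylation genes 2 fell (medians -0.09 and -0.06). The Myc target counts moved with the fit: 3 rose and 1 fell with the prefix block, 2 and 4 with only the 9 libraries, 1 and 6 when the title number was the block, 3 and 2 with library weights, and 1 and 0 without Kit+Sca1+ replicate 4 or at equal sums without short RNA rows. Without single libraries, 0 to 2 of the oxidative phosphorylation genes were called, with 0 without Kit+Sca1+ replicate 4, and 0 were called at equal sums without short RNA rows and with only the shared prefixes. Glycolysis genes fell in 13 of 24 and rose in 1 (median -0.57): the lactate exporter Slc16a3 was at 8.47, 10.2, 17.8 and 16.2 FPKM against 40.2 to 47.5 FPKM, the glucose transporter Slc2a3 (-1.52) and the hexokinase Hk1 (-0.99) fell. Of 35 lysosome and phagocytosis genes, 13 fell and 6 rose, the higher count being near the 17.2% of all rows. The lipid scavenger Cd36 was higher (1.62) and the Fc receptor chain Fcer1g lower (-1.48).

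Feedback and target genes of RAS-ERK signalling, the pathway that NRASG12V activates, fell in 10 of 32 and rose in 2 (median -0.11). Dusp6, the ERK phosphatase, was at 44.5 to 50.6 FPKM against 69.2 to 101 FPKM (-0.75 ± 0.20), and Plaur, the urokinase receptor, at 10.8 to 18.2 FPKM against 81.4 to 98.6 FPKM. Dusp2, a phosphatase of immune cells, rose by 1.92. Both Dusp6 and Plaur were highest in MacHigh (176 and 149 FPKM). Immediate early and stress genes rose in 4 of 30 and fell in 4, both below the shares of all rows (17.2% and 15.7%). With the prefix block 10 rose and 4 fell. Ier5 was at 74.7, 70.7, 78.7 and 133 FPKM against 25.4 to 37.9 FPKM. In the BCL2 family 4 of 17 rose and 2 fell, counts near those shares. Bcl2a1d, whose reads near-identical copies share, rose by 1.91 and Bcl2l1 fell by 0.64. Bcl2 did not pass (0.36, adjusted p = 0.123), and was called without Kit+Sca1+ replicate 4 (0.56).

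Genes of Polycomb and MLL complexes and of DNA methylation rose in 9 of 41 and fell in 2 (median 0.05), where 17.2% of all rows were higher. The counts were 4 higher and 3 lower at equal FPKM sums, 5 and 1 in the fit of only the shared prefixes, and 12 and 5 with library weights. The de novo DNA methyltransferases Dnmt3a and Dnmt3b rose by 0.92 and 1.06, Dnmt3b being highest in replicate 1 (16.2, 9.93, 6.53 and 6.35 FPKM against 3.42 to 4.28 FPKM), and the Polycomb subunit Cbx2 by 1.06. Idh1, whose product feeds the demethylases, fell by 0.73. Wnt and beta-catenin genes rose in 7 of 16 and fell in 1, with 4 and 2 at equal FPKM sums and 3 and 1 in the fit of only the shared prefixes. The receptor Fzd1 was at 6.48, 9.28, 13.8 and 8.72 FPKM against 0.583 to 1.24 FPKM (2.44 ± 0.18, adjusted p = 6.42e-10), and the factor Tcf7l2 rose by 1.36. Integrins and adhesion genes rose in 10 of 29 and fell in 6. Itgae moved farthest up, and Itgam, the marker by which the cells were gated low, farthest down.

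The sample names carry prefixes, 3 of which occur in both groups, and differences within these were taken for 6 genes. For Xcr1 they were 3.58, 3.68 and 2.79, for Vcam1 3.33, 2.22 and 2.74, for Sox4 2.25, 1.65 and 1.16, for Retnlg -4.44, -4.63 and -5.33, and for Slc4a1 -4.59, -5.24 and -4.19. The values of these 5 genes did not overlap between the groups, so the sign within each prefix was fixed in advance. It is therefore no check, and only the sizes are informative. Mpo, which did not pass, was at 0.06, 0.97 and 1.57.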

How the data were processed

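RNA-seq libraries of total RNA from spleen leukaemia cells were compared, 4 of Kit+Sca1+ and 5 of unsorted cells. The authors deposited 1 table of FPKM with 23361 rows, made with TopHat2 2.0.4 and Cuffdiff on mm10, per the submitters' processing notes. The Cuffdiff version, annotation and normalization are not given in the sources used here. A value of 0.001 stands for 0, and a gene at 0.001 in every library of a group but at 5 FPKM or more in every library of another was set to missing in that group. Among the rows set to missing were S100a9 in unsorted, and Lyz2 and Psap in MacHigh. In Kit+Sca1- they included Mpo, Elane, Prtn3, Prss57, S100a8 and S100a9. Read counts were not analysed here, so counting error is unknown.

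The 11599 rows that reached 1 FPKM in 4 or more of the 24 libraries were fitted as log2(FPKM + 1) with limma 3.58.1 in R 4.3.3, on 5 groups with a variance trend, and p-values were adjusted by Benjamini-Hochberg over all rows with a value. Using all 24 libraries shares 1 estimate of the spread. Sort markers were also tested by exact permutation. Genes named by rule are the sort markers, the 10 highest and 10 lowest differences without overlap, the 3 rows most like Ly6a, and the members of each list with the largest moderated statistics. Some genes named by the rule are not reported here. Other genes were chosen after their values were seen, and members, lists and motifs were all chosen with earlier results of these data known. Symbols were matched to RefSeq (GRCm38.p6) for 23201 rows, 1677 by synonym. Python 3.11.15 and matplotlib 3.10.9 made the figures.

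Sample names share 3 prefixes between the groups. Deviations from the group means correlated at 0.38, 0.27 and 0.20 for the pairs with the same prefix. The other pairs gave -0.34 to 0.16. The prefix may thus pair libraries, but what it marks is not stated in the labels. It was used as a block only in an alternative fit, which called 4918 rows against 3818. The counts and differences given are from the fit without this block unless the block is named. Fits with the prefix or the title number as a block, other pseudocounts, filters, scalings, variance settings and each library left out were tried as alternatives. A scaling without short RNA rows and a fit with the compared groups limited to the shared prefixes were added after seeing the data.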

Additional observations from a re-analysis of the deposited data

Results flagged for a closer look

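Of 326 groups of values (163 genes, each in both groups), 20 had 1 library far from the others by Dixon's gap criterion on the log2 scale. Chance alone gives about 1 in 20 groups of values, so the count is near that rate, and single cases below may be chance. Kit+Sca1+ replicate 1 was the low library for H2-Ab1 (2487 FPKM against 4474 to 4857 FPKM in the others), Psmb9 (203 against 362 to 385 FPKM), Procr (7.13 against 15.4 to 16.2 FPKM), Psap (2547 against 4205 to 4428 FPKM) and Cd36 (45.3 against 76.1 to 83.1 FPKM). Kit+Sca1+ replicate 2 was high for the erythroid genes Hba-a1 (32.9 against 7.86 to 9.61 FPKM) and Klf1 (1.95 against 0.462 to 0.634 FPKM). Kit+Sca1+ replicate 4 was low for Ccne1 (11.2 FPKM) and high for Ier5 (133 FPKM).

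Unsorted replicate 4 was low for the neutrophil genes Ltf (1006 against 1870 to 2206 FPKM) and S100a8 (16781 against 30952 to 39685 FPKM) and for Gbp1 (0.395 FPKM), and high for Ccne1 (50.9 FPKM) and Rrm2 (155 FPKM). Unsorted replicate 5 was high for Cd8a (2.97 FPKM) and Itgax (46.2 FPKM), replicate 2 was low for Cxcl9 (1.74 FPKM) and Id2 (123 FPKM) and high for Thy1 (3.02 FPKM), and replicate 1 was high for Retnlg (536 FPKM).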

How the results depend on the processing

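The count of changed genes (3818) lay between 2952 with a filter at 5 FPKM and 4918 with the block on the sample name prefix. In the latter, 2549 were higher and 2369 lower. Below that range, the count was 2904 in the fit that limited Kit+Sca1+ and unsorted to the 3 shared prefixes, which was not planned. With the block on the title number it was 4367, though same-numbered libraries did not deviate together (correlations from -0.13 to 0.10). Leaving out 1 library gave 3170 to 3663. The count changed by 1 or more on the log2 scale (1077) was 1019 to 1117 without 1 library, 558 with a pseudocount of 5 FPKM (258 higher and 300 lower), 1418 with 0.1 FPKM (706 and 712) and 801 with the filter at 5 FPKM. List members changed (426) numbered 385 to 415 without 1 library. Without 1 library the sort marker differences ranged over -2.80 to -2.36 for Itgam, 1.46 to 1.69 for Kit and 1.37 to 1.60 for Ly6a, and with pseudocounts of 5 and 0.1 FPKM they were -2.47 and -2.57, 1.31 and 1.66, and 0.83 and 1.83. Signs turned for genes that were not called: without 1 library, Cd34 ranged from -0.028 to 0.34, Erg from -0.069 to 0.215, Ncr1 from -0.13 to 0.38 and Ctsg from -0.015 to 0.51. Erg was -0.046 with the prefix block, and Cd34 -0.19 and Erg -0.20 in that fit of shared prefixes, which was chosen after seeing the data. The causes were not tested. Without counts, the precision of low values is unknown.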
